A study of Mus musculus with 12 samples.

Results

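The genes described here are the 6 adult globin genes that the expression table of this series lists, of 20788 genes in all: 4 beta-globin genes, Hbb-bs, Hbb-bt, Hbb-b1 and Hbb-b2, and 2 alpha-globin genes, Hba-a1 and Hba-a2. They were selected on their own levels in these libraries, since an earlier look had shown that the beta-globin reads split differently between the copies in the groups and that Hbb-bs was nearly without reads in one control group. For this reason their levels and folds are given as a description, with no test. All 6 were in the part of the table that passed a filter on low counts (16388 genes).

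Testes of F1 male mice were sequenced. The mice were of a strain given as IRC in the labels and as ICR, an outbred stock, in the study, and the libraries form 4 groups of 3. The 3NC group is the control of the LV3 lentiviral backbone and the knockdown group stems from LV3 with shRNAs against lncRNA5251, a long noncoding RNA. The 5NC group is the control of the LV5 backbone and the overexpression group stems from LV5 with lncRNA5251. In the study the virus was injected into the testes of 4-week-old males, which were mated with normal females, and the male offspring were sampled at the age of 8 weeks, while by the submitters' design description the vector was put into F1 testes. All 12 libraries thus come from lineages given a lentivirus, none from mice without one, and lncRNA5251 itself was not analysed here, so the group labels were not checked against their target. Whether each library is 1 animal, and whether animals shared a litter, is nowhere stated, so a p-value refers to library-to-library spread that may be technical.

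Haemoglobin, the oxygen carrier of red blood cells, is built of alpha- and beta-globin chains around heme. Globin messenger RNA is made by erythroid precursors in the bone marrow and is still present in reticulocytes, the young red cells that circulate, so in a bulk tissue such as testis it mostly marks the blood that the sample held. In bulk samples fewer cells of a type and less RNA per cell cannot be told apart. The mouse beta-globin locus occurs in alternative forms in different strains and stocks. The form of the reference strain C57BL/6 carries Hbb-bs and Hbb-bt, and another form carries Hbb-b1 (beta-major) and Hbb-b2 (beta-minor). Per the study's methods the aligner was run with an option that reports repeated hits, but how the counts were then divided among these close copies was not given in the sources used, so the read numbers of single copies are uncertain.

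The sequences show how close the copies are. In the GENCODE annotation of the GRCm38 assembly, Hbb-bs lies on the minus strand at chr7:103826534-103827928 and Hbb-bt at chr7:103812524-103813996, each with 3 exons and 444 coding bases. The coding sequences differ at 1 base (99.77% identity), C417T counted from the A of the start codon with the base of Hbb-bs first, and the difference does not change the amino acid. The last 60 coding bases are shown, stop codon included, with the base that differs in capitals.
Hbb-bs: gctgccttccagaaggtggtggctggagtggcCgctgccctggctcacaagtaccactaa
Hbb-bt: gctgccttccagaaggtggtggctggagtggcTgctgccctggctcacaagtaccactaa
Of all stretches of 50 bases in the Hbb-bs transcript, 65.8% also occur in that of Hbb-bt, and 58.3% in the other direction. A read of 50 bases from such a stretch matches both genes.

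The alpha-globin pair lies on the plus strand of chromosome 11, Hba-a1 at chr11:32283511-32284465 and Hba-a2 at chr11:32296489-32297298. Their 429 coding bases also differ at a single base without a change of amino acid, C381T with the base of Hba-a1 first, which is in capitals in the coding bases from 351 to 410.
Hba-a1: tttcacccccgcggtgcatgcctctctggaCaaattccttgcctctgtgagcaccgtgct
Hba-a2: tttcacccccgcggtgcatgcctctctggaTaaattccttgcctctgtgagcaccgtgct
Here 67.5% of the stretches of 50 bases in Hba-a1 occur in Hba-a2 and 86.9% in the other direction. Hbb-b1 and Hbb-b2 are placed by RefSeq on an alternate sequence of the locus, and neither their sequence nor their coordinates are shown.

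The 120 bases before the RefSeq start of Hbb-bs and of Hba-a2 are given as 1 example of each gene class (RefSeq, GRCm38.p6; chr7:103827929-103828048, minus strand, and chr11:32296372-32296491, plus strand). Capitals mark the CCAAT box, the CACCC box, the GATA motif and the letters TATAA of the TATA box, each searched on both strands by these letters.
Hbb-bs: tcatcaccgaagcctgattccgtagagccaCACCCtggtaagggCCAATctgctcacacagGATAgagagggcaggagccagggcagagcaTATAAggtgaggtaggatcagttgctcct
Hba-a2: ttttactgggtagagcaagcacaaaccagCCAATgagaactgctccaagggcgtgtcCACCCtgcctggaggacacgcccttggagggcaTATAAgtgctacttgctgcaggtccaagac
Both windows hold CCAAT, found in 21.3% of 32851 windows of this length, the CACCC box, found in 31.7%, and TATAA, found in 11.8%, and that of Hbb-bs also holds the GATA motif, found in 29.5%, which the window of Hbb-bt does not hold. Such a match is a description of letters and not of a bound site. Compared without gaps, the windows of Hbb-bs and Hbb-bt were identical at 73.9% of 119 bases and those of Hba-a1 and Hba-a2 at 100% of 117, so the start regions of the beta-globin pair differ far more than its coding bases do.

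The libraries held 12719699 to 15771655 estimated reads, a ratio of 1.24 between the deepest and the shallowest. The 6 globin genes together had 439 to 1944 of these reads per library. Levels are in CPM, read counts relative to the size of the library, after trimmed mean of M-values (TMM) scaling, and where genes are compared with each other, in the authors' FPKM, which also divides by length. Markers of germ cells (8 of 8 genes), Sertoli cells (6 of 6) and Leydig cells (6 of 6) were detected, as the testis label implies. 2 libraries stood apart in blood-cell genes: the summed level of 10 white blood cell markers was 155 CPM in 3NC replicate 2 and 118 CPM in knockdown replicate 1, and between 5.36 and 19.9 CPM in the other 10.

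Hbb-bs was lower in every knockdown library than in any 3NC library, was nearly without reads in 5NC, and was present in all 3 overexpression libraries. Its levels were 13.0, 14.1 and 6.02 CPM in 3NC replicates 1, 2 and 3. In the knockdown group they were 3.22, 3.63 and 3.85 CPM. In 5NC they were 0, 0 and 0.0737 CPM, the last from 1 read. In the overexpression group they were 4.39, 10.4 and 7.26 CPM. By mean level the order was 3NC (11.0 ± 4.38, SD, n = 3), overexpression (7.35 ± 3.00), knockdown (3.57 ± 0.320) and 5NC (0.0246 ± 0.0425), and in this order only 3NC and overexpression overlapped. Summed over libraries, Hbb-bs had 512 reads in 3NC, 163 in the knockdown group, 314 in the overexpression group and 1 in 5NC.

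Hbb-bt, its partner in the same form of the locus, followed it at a lower level. It was at 2.80, 4.29 and 1.09 CPM in 3NC, at 0.551, 1.57 and 0.992 CPM in the knockdown group, at 0.685, 1.52 and 2.25 CPM in the overexpression group and at 0, 0.0717 and 0 CPM in 5NC. Unlike Hbb-bs, its knockdown and 3NC libraries overlapped. Across the 12 libraries the log2 levels of the pair had a Pearson's r of 0.96, and of 0.83 over the 9 libraries without 5NC. The copies can share reads, so this r is not a measure of separate genes. Hbb-bt took 12.8 to 30.8% of the reads of the pair in those 9 libraries.

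Taken as a pair, Hbb-bs and Hbb-bt had 2 reads in the 5NC libraries against 640 in 3NC, 210 in the knockdown group and 376 in the overexpression group. The ratios to 5NC, scaled to total reads, were 301.0 (95% exact binomial interval 83.0 to 2490) for 3NC, 98.8 (27.0 to 821) for the knockdown group and 188.0 (51.6 to 1550) for the overexpression group. Intervals of this kind cover counting error only.

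Hbb-b1, the beta-major gene of the other form, showed the opposite order between the controls. It was at 9.89, 7.88 and 7.67 CPM in 3NC and at 21.6, 35.0 and 25.7 CPM in 5NC, with no overlap. The knockdown libraries were at 18.8, 5.89 and 10.1 CPM and the overexpression libraries at 36.0, 12.8 and 5.72 CPM, and each group overlapped its own control. Its fitted log2 fold change was 1.69 (SE 0.565) in 5NC relative to 3NC, 0.45 (SE 0.563) in the knockdown group relative to 3NC and -0.59 (SE 0.546) in the overexpression group relative to 5NC.

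Hbb-b2, the beta-minor gene, moved with Hbb-b1 (r = 0.96 over 12 libraries and 0.93 over 9). Its levels were 2.31, 1.49 and 0.607 CPM in 3NC and 3.93, 8.09 and 5.65 CPM in 5NC, again without overlap. They were 2.59, 0.598 and 2.16 CPM in the knockdown group and 8.87, 2.33 and 0.555 CPM in the overexpression group. Hbb-b2 took 7.32 to 19.8% of the reads of its pair over the 12 libraries, and the group means of that share lay between 13.0 and 17.4%.

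**Figure D1:**
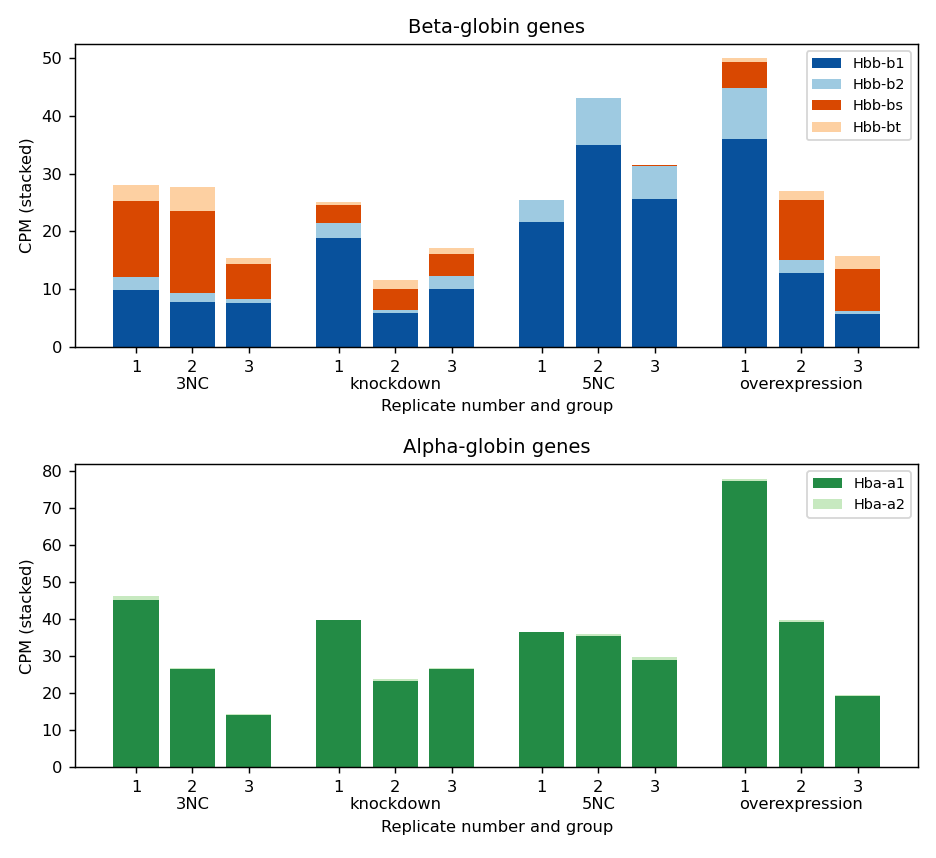
Levels of the globin genes in each of the 12 libraries, in CPM, as stacked bars (top, the 4 beta-globin genes; bottom, the 2 alpha-globin genes; x axis, replicate number and group). The Hbb-bs and Hbb-bt parts of the bars are missing in 5NC, whose beta-globin bars (25.5 to 43.2 CPM) consist of Hbb-b1 and Hbb-b2, and overexpression replicate 1 has the highest bar in both panels.

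The split between the 2 pairs was then expressed as the share of all beta-globin reads that fell on Hbb-bs and Hbb-bt. The share does not depend on scaling between libraries, and the lengths behind the FPKM of the 4 genes are close (493 to 502 bases). In 3NC it was 56.3% (95% exact binomial interval 51.4 to 61.1), 66.2% (61.6 to 70.6) and 46.1% (39.5 to 52.8). In the knockdown group it was 15.1% (11.7 to 19.0), 44.3% (36.8 to 52.0) and 28.3% (22.9 to 34.3). In the overexpression group it was 10.1% (8.08 to 12.5), 44.1% (39.2 to 49.1) and 60.3% (53.1 to 67.2).

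In 5NC the share was 0 of 409 reads in replicate 1 (interval 0 to 0.898), where the limit of 3 reads set for a count of 0 is 0.733%, then 0.163% (1 of 614 reads, interval 0.00412 to 0.904) and 0.228% (1 of 439 reads, interval 0.00577 to 1.26). The group means were 56.3 ± 10% in 3NC, 29.2 ± 14.8% in the knockdown group, 38.2 ± 25.5% in the overexpression group and 0.134 ± 0.121% in 5NC (SD, n = 3 each). All 3 knockdown libraries lay below all 3 of 3NC, by a narrow margin, since the intervals of knockdown replicate 2 and 3NC replicate 3 overlapped for most of their length, and all 3 overexpression libraries lay above all 3 of 5NC.

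**Figure D2:**
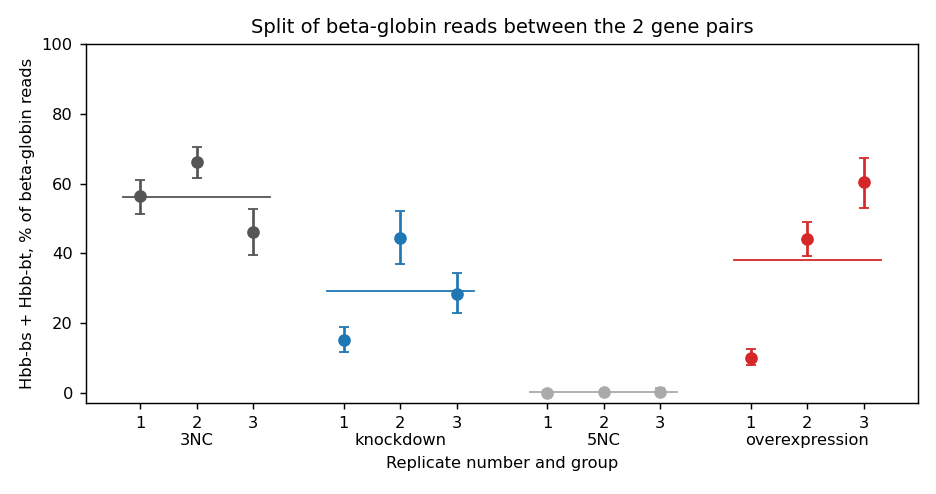
Share of beta-globin reads that fell on Hbb-bs and Hbb-bt (y axis, percent) in each library (x axis, replicate number and group), with 95% exact binomial intervals as error bars and group means as horizontal lines. The 5NC libraries lie at 0 to 0.228%, those of 3NC at 46.1 to 66.2%, and overexpression spans 10.1 to 60.3%.

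The alpha-globin genes did not follow this pattern. Hba-a1 was at 45.1, 26.5 and 14.1 CPM in 3NC, at 39.6, 23.2 and 26.5 CPM in the knockdown group, at 36.5, 35.5 and 29.0 CPM in 5NC and at 77.1, 39.2 and 19.2 CPM in the overexpression group. Every pair of groups overlapped, and the fitted log2 fold changes were 0.06 (SE 0.469) in the knockdown group relative to 3NC, 0.42 (SE 0.466) in the overexpression group relative to 5NC and 0.24 (SE 0.469) in 5NC relative to 3NC. Per length Hba-a1 was the highest of the 6 genes in every group by mean, from 68.6 ± 36.9 FPKM in 3NC to 104.0 ± 66.2 FPKM in the overexpression group (SD, n = 3). Hba-a2 had 0 to 0.979 CPM and took 0 to 2.64% of the alpha-globin reads. These copies can share reads too, so this share is not a measure of separate genes, and the part of read assignment in it was not tested.

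Summed beta-globin hid the split. The 4 genes together were at 28.0, 27.8 and 15.4 CPM in 3NC, 25.1, 11.7 and 17.1 CPM in the knockdown group, 25.5, 43.2 and 31.4 CPM in 5NC and 49.9, 27.0 and 15.8 CPM in the overexpression group, and all pairs of compared groups overlapped. Summed alpha- and beta-globin had an r of 0.78 over 12 libraries and 0.86 without 5NC, and alpha-globin took 45.3 to 67.0% of all globin reads. By contrast the r of Hbb-bs and Hbb-b1 was -0.67 over 12 libraries and -0.28 over the 9 without 5NC.

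Total globin, the sum of the 6 genes and a measure of the blood in a sample, overlapped in every comparison. It was at 74.1, 54.6 and 29.6 CPM in 3NC, 64.9, 35.5 and 43.8 CPM in the knockdown group, 62.0, 79.0 and 61.2 CPM in 5NC and 128.0, 66.6 and 35.3 CPM in the overexpression group. The log2 ratio was -0.08 (SE 0.47) for knockdown relative to 3NC, 0.00 (SE 0.55) for overexpression relative to 5NC and 0.44 (SE 0.41) for 5NC relative to 3NC. The highest and lowest libraries differed 4.31-fold, and within the overexpression group the values ran from 35.3 to 128.0 CPM, a wider range than that of the group means (48.1 to 76.5 CPM).

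The members were set against all genes tested. Of the 6, 1 (Hbb-bs) had no overlap between the knockdown group and 3NC, where 11.3% of all genes tested had none. Hbb-bs and Hbb-bt, 2 of 6, had none between the overexpression group and 5NC, where the share of all genes was 21.3%. Hbb-bs, Hbb-bt, Hbb-b1 and Hbb-b2, 4 of 6, had none between 5NC and 3NC, against 13.0% of all genes. Because the genes were selected on these contrasts, nothing is read from the counts.

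By edgeR's quasi-likelihood test with Benjamini-Hochberg adjustment over 16388 genes, 0 genes (0%) passed an adjusted p of 0.05 between the knockdown group and 3NC, 51 (0.311%; 34 higher and 17 lower) between the overexpression group and 5NC, 21 (0.128%; 5 higher and 16 lower) between 5NC and 3NC, and 4 (0.0244%) for the difference between the knockdown and overexpression effects. At an unadjusted p under 0.05 the first comparison had 924 genes, and DESeq2 called 16. With library totals and no scaling the splits were 37 higher and 29 lower, and 13 higher and 20 lower. Without 5NC replicate 1 the overexpression split was 18 higher and 31 lower, and with limma-trend on log2(FPKM + 0.1) it was 40 and 42. These shares are the background for the lists of other genes that follow.

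The other globins were a list of 11 genes, of which 8 had a row in the table and 3 were tested. The embryonic genes Hbb-y and Hba-x and the theta genes Hbq1a and Hbq1b had at most 4 reads each over all 12 libraries, and Mb (myoglobin, of muscle) had 22. Adgb, androglobin of the testis, was the highest of the list. It was at 110.0, 98.0 and 153.0 CPM in 3NC, 137.0, 144.0 and 139.0 CPM in the knockdown group, 82.5, 89.6 and 86.3 CPM in 5NC and 160.0, 121.0 and 137.0 CPM in the overexpression group. Its 5NC libraries were the 3 lowest of the 12. The log2 fold change in the overexpression group relative to 5NC was 0.69 (SE 0.150, edgeR adjusted p = 0.0926), so it did not pass. Its adjusted p was 0.0394 when the 6 libraries of that comparison alone were fitted and 0.00221 with DESeq2, and ran from 0.00221 to 0.389 over 14 alternatives, of which 3 passed. Cygb (5.94 to 11.1 CPM) and Ngb (1.06 to 2.25 CPM) did not pass in any comparison.

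The genes of red cells were taken as 4 lists of 63 genes for heme synthesis, the red cell membrane, erythroid transcription factors, and the cytosol and signalling of red cells. Of these, 62 had a row, 51 were tested and 0 passed in any comparison by edgeR, with 2 (3.92%), 5 (9.80%) and 4 (7.84%) at an unadjusted p under 0.05 in the knockdown, overexpression and control comparisons, where 5.64%, 11.9% and 10.8% of all genes tested were under it. Their median log2 fold changes were 0.01, -0.04 and -0.05, next to -0.02, -0.01 and -0.02 for all genes. Their summed level was between 1820 and 1950 CPM, and its r with total globin over the 12 libraries was 0.16. The sum is carried by a few genes, with Mkrn1 alone at a mean of 679 CPM. Members of low level varied more, such as Klf1 (0.998 to 8.86 CPM), a transcription factor of the adult beta-globin genes, and Hp (0.540 to 29.9 CPM), haptoglobin, both named after their values were seen. Many of these genes are also expressed by other testis cells.

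Of 7 genes taken to define reticulocytes, 6 had a row. Alas2, the erythroid enzyme that starts heme synthesis, was at 15.3 to 23.0 CPM. Slc4a1 (band 3, the anion exchanger of red cells) was at 0.125 to 0.986 CPM and Epb42 and Rhag had 4 reads and 1 read in all. Of these 6 genes 2 were tested, Alas2 among them, and 0 passed by edgeR in any comparison, with 1 at an unadjusted p under 0.05 in the overexpression group relative to 5NC.

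Markers of other cells were placed beside total globin. Its r with the summed level of white blood cell markers (10 genes) was 0.14 over 12 libraries, with macrophage markers (7 genes) 0.15, with platelet markers (7 genes) 0.04, with endothelial markers (6 genes) 0.20 and with Leydig cell markers (6 genes) 0.32. The libraries share the same scaling, and none of the r exceeded 0.40 over the 9 libraries without 5NC. Macrophage markers were at 285 CPM in 3NC replicate 2 and 469 CPM in knockdown replicate 1 and at 86.3 to 109 CPM elsewhere, whereas total globin in these libraries (54.6 and 64.9 CPM) was within the range of the others. The platelet sum stayed between 5.56 and 8.71 CPM. Epididymal markers (9 genes, 1 of them at 0 throughout) summed to 38.1, 67.6 and 32.2 CPM in 3NC, 20.5, 4.58 and 6.35 CPM in the knockdown group, 18.1, 250 and 109 CPM in 5NC and 4.55, 3.33 and 3.96 CPM in the overexpression group. The knockdown and the overexpression libraries each lay below those of their own control in this sum, which is carried by Crisp1 (0.0664 to 239 CPM, no other member above 7.80 CPM), named after its values were seen. In the knockdown group relative to 3NC the log2 fold changes of the 4 members tested ran from -3.10 to 0.66 and none passed. Spint3, named after its values were seen, was the one of 4 tested to pass in the overexpression group relative to 5NC (log2 fold change -3.51, edgeR adjusted p = 0.0206). Of all genes tested 0.311% passed in that comparison. Spint3 was at a low level, 0.0657 to 2.95 CPM with 142 reads over the 12 libraries. Its call was not followed under the alternatives. The part of any of these cells in the globin values was not tested.

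**Figure D3:**
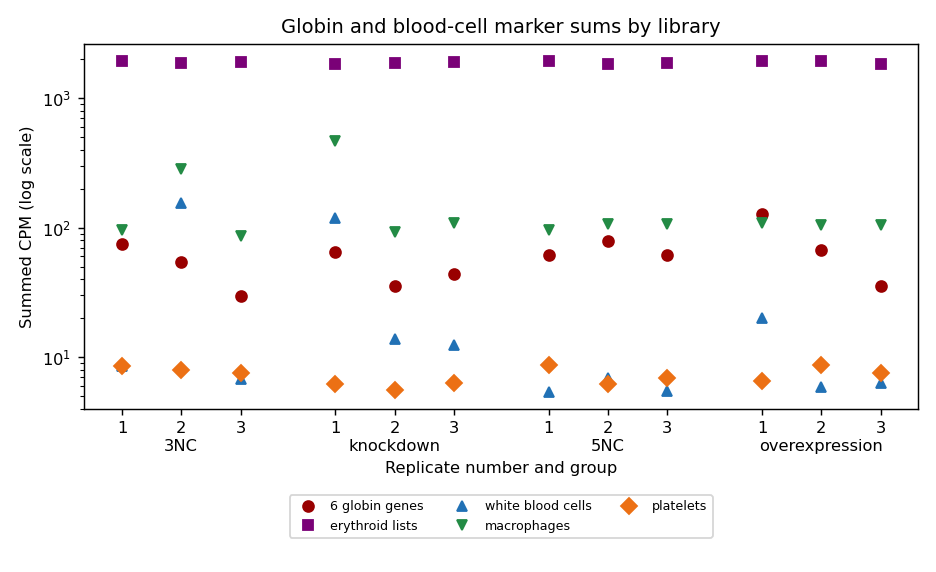
Summed CPM on a log scale of the 6 globin genes, the erythroid lists and markers of white blood cells, macrophages and platelets (symbols) in each library (x axis, replicate number and group). The erythroid lists lie at 1820 to 1950 CPM and total globin spans 29.6 to 128.0 CPM, while white blood cell and macrophage markers peak in 3NC replicate 2 and knockdown replicate 1.

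The genes around the beta-globin locus were examined by position. Of 36 genes of the table within 500 kb of Hbb-bs, 7 were tested and 1 passed, both in the overexpression group relative to 5NC and in 5NC relative to 3NC. This was Trim6, a tripartite motif ubiquitin ligase gene at chr7:104218795-104235152. It was at 10.3, 11.3 and 9.58 CPM in 3NC, 9.86, 12.1 and 6.75 CPM in the knockdown group, 3.06, 3.09 and 2.93 CPM in 5NC and 7.89, 7.65 and 12.1 CPM in the overexpression group, so that the 5NC libraries lay below the other 9. Its log2 fold change was 1.60 (SE 0.237, edgeR adjusted p = 0.0206) in the overexpression group relative to 5NC and -1.78 (SE 0.237, edgeR adjusted p = 0.0165) in 5NC relative to 3NC.

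These calls of Trim6 were lost when single libraries were left out. In the overexpression comparison the edgeR adjusted p was 0.0604, 0.109 and 0.156 without 5NC replicate 1, 2 and 3 and 0.0551 without overexpression replicate 3, and in the control comparison it was 0.105, 0.0848 and 0.141 without 5NC replicate 1, 2 and 3 and 0.0501 without 3NC replicate 1. The log2 fold change stayed between 1.37 and 1.72 and between -1.82 and -1.71 over 14 alternatives, of which 9 passed in each comparison, and both comparisons share the 5NC libraries. Trim5, its neighbour at chr7:104263386-104288254, was at 0.0703 to 0.143 CPM in 5NC and at 0.673 to 3.75 CPM elsewhere. Its log2 fold change was 3.24 (SE 0.734) in the overexpression group relative to 5NC and -4.14 (SE 0.709) in 5NC relative to 3NC. At this low level it did not pass (edgeR adjusted p = 0.104 and 0.0593), and it passed in 1 of 13 and 2 of 14 alternatives. Ubqlnl, one of the highest in the window, was at 267.0 to 373.0 CPM and did not pass. Near Hba-a1 on chromosome 11, 16 genes of the table lay within 500 kb, 12 were tested and 0 passed in any comparison, with log2 fold changes of -0.17 to 0.53 in the knockdown group relative to 3NC, -0.09 to 0.27 in the overexpression group relative to 5NC and -1.29 to 0.21 in 5NC relative to 3NC.

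The genes other than the 6 globin genes whose levels were most like those of Hbb-bs over the 12 libraries, by Pearson's r of log2 CPM, were Gm40011 (0.95), Gtf2ird2 (0.94), Dchs1 (0.93), Bdh1 (0.93) and Trim5 (0.93). Over the 9 libraries without 5NC the r fell to 0.12, 0.22, 0.22, 0.28 and 0.68, so the likeness of the first 4 rests on the low 5NC libraries. Dchs1, a large cadherin gene at chr7:105752989-105788355, was at 5.20 to 5.36 CPM in 5NC and at 12.6 to 22.7 CPM in the other 9 libraries. Gm40011, on chromosome 2, was at 0.0624 to 0.281 CPM in 5NC and at 5.63 to 11.1 CPM elsewhere. These genes were picked for their likeness to Hbb-bs, and their levels are a description.

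The 20 genes most like Hbb-bs were then placed by position, with the globin genes left out. Both the number 20 and the distance of 2 megabases were chosen after the values were seen. Of these 20, 5 (25%) lay on chromosome 7 and 4 (20%) within 2 megabases of Hbb-bs, namely Trim5, Trim6, Dchs1 and Nup98. The fifth was Psg17, and Psg19 (r = 0.88), also on chromosome 7, lay just outside the 20. Of 16382 other genes tested, 7.67% lay on chromosome 7 and 0.293% (48 genes) within that distance. Other genes of the same window ran the opposite way, such as Pgap2 (r = -0.85) and Stim1 (r = -0.80). Nup98, a nuclear pore gene, was at 405 to 418 CPM in 5NC and at 519 to 600.0 CPM in the other 9 libraries, a smaller step than that of Trim6 or Dchs1.

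**Figure D4:**
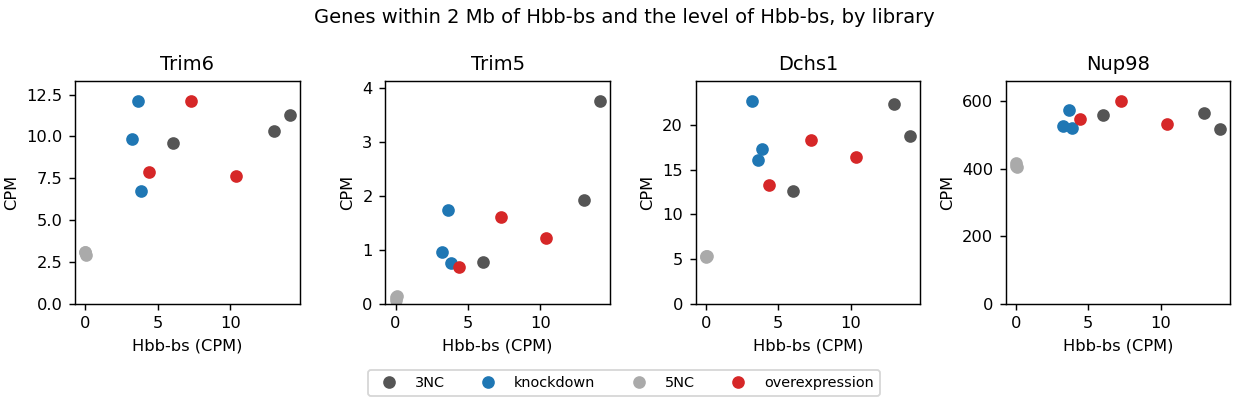
Levels of 4 genes within 2 megabases of Hbb-bs (y axes, CPM) against the level of Hbb-bs (x axes, CPM), 1 point per library coloured by group. The 3 points of 5NC lie at the left of every panel and below the other 9 libraries. They are at 2.93 to 3.09 CPM for Trim6, and at 405 to 418 CPM for Nup98, where the step is smaller. Among the other 9 libraries the r with Hbb-bs was 0.22 for Trim6 and Dchs1, 0.68 for Trim5 and 0.01 for Nup98.

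**Figure D5:**
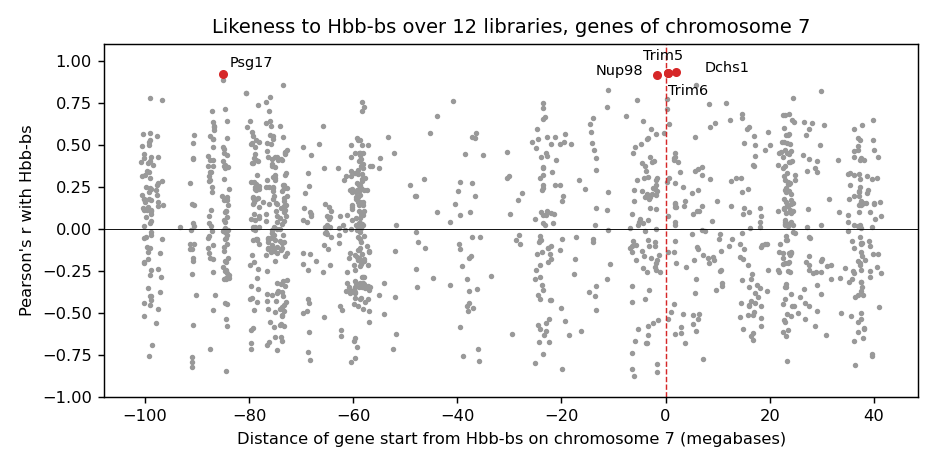
Pearson's r of log2 CPM with Hbb-bs over 12 libraries (y axis) for the 1257 other tested genes of chromosome 7, by the distance of their start from Hbb-bs (x axis, megabases; dashed line, Hbb-bs). The 5 genes of the chromosome among the 20 most like Hbb-bs, globin genes left out, are in red, 4 of them within 2 megabases and Psg17 at -85.0 megabases.

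Again leaving out the globin genes, those most like Hbb-b1 were Pcdhgb4 (r = 0.89), Gm3409 (0.84), Coa3 (0.84), Garem2 (0.84) and Polr2j (0.82), and their r over the 9 libraries without 5NC was 0.83, 0.74, 0.87, 0.76 and 0.68. Those most like total globin were Chmp7 (0.85), 0610010K14Rik (0.84), Gm41844 (0.83), Bcar3 (0.82) and Gm46894 (0.81), with 0.86, 0.85, 0.85, 0.84 and 0.81 without 5NC. For these 10 genes the likeness therefore did not rest on 5NC alone, unlike that of Gm40011, Gtf2ird2, Dchs1 and Bdh1 to Hbb-bs. The 10 were the highest of all genes tested and were ranked on libraries that include these 9, so each r is a description. Gm3409 (0 to 4.57 CPM), Pcdhgb4 (0.267 to 1.30 CPM) and Garem2 (0.595 to 1.27 CPM) were at low levels. Chmp7 itself varied between 21.1 and 27.0 CPM over the 12 libraries, far less than total globin. None of the defining reticulocyte genes was among these 10.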

How the data were processed

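Testis RNA of 12 libraries was sequenced, and sample titles gave the group and the replicate number of each. Per the methods, messenger RNA was enriched with oligo(dT) beads, reads were aligned with SOAPaligner and genes were called with DEGseq, while the labels name total RNA and build mm10. In the deposited table, estimated counts are unscaled and hold fractions in 17.3% of the genes. The authors also deposited FPKM, for which their methods write RPKM. 18 further per-sample columns of other groups were not used. Of the gene IDs, 20630 (99.2%) matched RefSeq. The authors' group averages were not used.

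Estimated counts were rounded and fitted with edgeR 4.0.16 in R 4.3.3 (TMM scaling, filterByExpr, quasi-likelihood test, all 12 libraries, 1 coefficient per group, 8 residual df, Benjamini-Hochberg adjustment over 16388 genes, threshold 0.05). The filter removed 4400 genes. The biological coefficient of variation was 22.9%. Tests were checked on simulated counts. Libraries of a group differed by a chi-square of at least 3.44 per degree of freedom, more than sampling noise gives, and none was merged. This does not tell separate animals from repeat preparations. Alternatives were other scalings, no filter, DESeq2 1.42.0, limma 3.58.1 on log2(FPKM + 0.1) with at least 0.5 FPKM in 3 libraries, copies summed, the replicate block and each library left out. A fit without the 2 libraries of high Ptprc was added after seeing the data.

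The members and all gene lists were chosen with earlier results of these data known. Named genes were the members, the other globins, of each erythroid list the 2 of highest mean CPM and any that passed, Alas2 and Slc4a1, the 5 genes most like Hbb-bs, Hbb-b1 and total globin, and within 500 kb of Hbb-bs and Hba-a1 the 2 of highest mean CPM and any that passed. Epb42, Rhag, Trim5 as a neighbour, Klf1, Hp, Nup98, Pgap2, Stim1, Psg17, Psg19, Crisp1 and Spint3 were named after their values were seen. Some genes that the rule takes are not reported here.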

Additional observations from a re-analysis of the deposited data

Results flagged for a closer look

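Hbb-bs moved in opposite directions against the 2 controls: all 3 knockdown libraries lay below all 3 of 3NC, and all 3 overexpression libraries lay above all 3 of 5NC. The fitted log2 difference between both effects was -9.51 (SE 0.813), a value that depends on the prior count since 5NC held 1 read. The difference was not tested here because the gene was selected on these values. The fitted log2 fold change was -1.62 in the knockdown group relative to 3NC and 7.89 in the overexpression group relative to 5NC. In 5NC relative to 3NC it was -8.47, so most of the difference rests on the 5NC libraries. The overexpression mean (7.35 CPM) was itself below that of 3NC (11.0 CPM). The share of beta-globin reads on Hbb-bs and Hbb-bt also moved in opposite directions against the 2 controls. Its mean differed by -27.0 percentage points in the knockdown group relative to 3NC and by 38.0 in the overexpression group relative to 5NC. The difference between both, -65.1 percentage points, was not tested. The overexpression mean of this share (38.2%) also lay below that of 3NC (56.3%). Gm40011, picked for its likeness to Hbb-bs, passed the test of the difference between both effects over all genes (log2 difference -5.33, SE 0.439, edgeR adjusted p = 0.000895). Its log2 fold change was -0.10 in the knockdown group relative to 3NC (edgeR adjusted p = 0.919), 5.22 in the overexpression group relative to 5NC and -5.73 in 5NC relative to 3NC, so the difference rests on the 5NC libraries.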

How the results depend on the processing

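No gene of the erythroid lists passed under any alternative run (15 per comparison and 20 for the difference of effects), and the log2 ratios of total globin and the shares of beta-globin reads moved by less than the spread between libraries under the alternatives run for them (10 per comparison and 5 per group). Leaving out 1 library gave total globin ratios of -0.45 to 0.21 for knockdown relative to 3NC, -0.47 to 0.46 for overexpression relative to 5NC and 0.07 to 0.73 for 5NC relative to 3NC, so the sign of the first 2 depended on single libraries. The corresponding shares on Hbb-bs and Hbb-bt were 51.3 to 61.3% in 3NC, 21.6 to 36.4% in the knockdown group, 0.0831 to 0.200% in 5NC and 27.1 to 52.1% in the overexpression group, which had a share of 27.5% when reads were summed over libraries.

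Counts of genes called by edgeR over the whole table moved more. With DESeq2 they were 16 for knockdown, 328 for overexpression, 173 for 5NC relative to 3NC and 42 for the difference of effects. Leaving out 1 library gave 0 to 12, 9 to 49, 3 to 35 and 2 to 10: the first was 12 when 3NC replicate 3 was left out and 2 when knockdown replicate 3 was, the second 9 without 5NC replicate 2 or 3, 21, 14 and 26 without overexpression replicate 1, 2 and 3, the third 13 and 35 without 3NC replicate 1 and 2 and 4, 4 and 3 without 5NC replicate 1, 2 and 3, and the last 10 without 3NC replicate 3 and 2 without 5NC replicate 2. The overexpression count was 107 with only the libraries compared, 82 with limma-trend on log2(FPKM + 0.1) and 159 without the 2 libraries of high Ptprc (3NC replicate 2 and knockdown replicate 1), an alternative chosen after seeing the data. The control count was 7 with only the libraries compared, 33 with no scaling and 45 without the same 2 libraries. The cause of these changes was not tested.

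Replicate numbers did not pair the libraries (r of deviations -0.64 to 0.39, over 0.1 in 5 of 18 pairs). With the replicate block the counts were 21 for overexpression, 5 for 5NC relative to 3NC and 2 for the difference of effects, and Trim6 had an edgeR adjusted p of 0.0651 and 0.0729. For the members, 13 of 248 refitted log2 fold changes moved by more than the spread between libraries and none was tested. Hbb-bs at 1 read in 5NC, Hbb-bt and Hba-a2 are limited by depth.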

Other observations

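The 4 reads of Hbb-y and the 2 reads of Hba-x, the embryonic globin genes, fell in knockdown libraries, Hbb-y in all 3 of them, with 0 reads in the other 9 libraries. With so few reads no level can be given. Hbq1a was at 0 in all 12 libraries.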
